A study of Rattus norvegicus with 40 samples.

Results

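Kidneys of rats given amlodipine were compared with kidneys of rats given hydralazine. The comparison used 8 of the 40 arrays of the study, namely every array labelled with 1 of these compounds: 4 amlodipine arrays (2 of each strain) and 4 hydralazine arrays (2 of each strain). All rats were male and 16 weeks old. SHRSP/Izm rats are a strain that becomes severely hypertensive and is prone to stroke, and WKY/Izm rats are its normotensive counterpart. Amlodipine had been given at 20 mg/kg/day and hydralazine at 10 mg/kg/day, so drug and dose cannot be told apart. The labels name 2 animals for each array, and those of a group's arrays differ. The sources used here do not say whether their RNA was pooled.

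Amlodipine blocks L-type calcium channels of vascular smooth muscle, which relaxes arteries. Hydralazine relaxes arterioles directly, by a mechanism that is still debated. Direct vasodilators are known to activate the sympathetic nerves and the renin-angiotensin system in return, and to make the kidney retain salt. Both drugs lower blood pressure in hypertensive rats. Blood pressure was not analysed here.

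Values are log2 of a normalised Cy5 intensity, on a scale where the median of every deposited array was near 0, and differences are amlodipine minus hydralazine on that scale ± standard error from limma, averaged over the strains. Between 63.4% and 65.0% of the probes carried the scanner's flag for a good signal on the 4 amlodipine arrays and the 2 earlier hydralazine arrays, against 70.9% and 72.6% on the 2 later hydralazine arrays. In each strain the hydralazine array numbered replicate 1 had been scanned in the session of the amlodipine arrays (the earlier array) and replicate 2 in a later session (the later array). The earlier and the later hydralazine array differed by a root mean square of 0.42 in SHRSP and 0.45 in WKY over all tested probes, against 0.29 and 0.28 between the amlodipine arrays of a strain. More than 1 log2 unit separated the hydralazine arrays at 771 probes in SHRSP and 962 in WKY, and the amlodipine arrays at 142 and 117. A probe was therefore taken further only if, in both strains, both hydralazine arrays lay on the same side of both amlodipine arrays. This is called the same-side rule here. A gene that rose or increased was higher with amlodipine than with hydralazine, and 1 that fell or decreased was lower. These words describe no change from vehicle. Kidney markers were well measured, with 16 of 20 proximal tubule genes and 10 of 11 distal tubule genes flagged good on all 8 arrays. Of 6 adrenal markers 5 were also flagged good on all 8, and the summed level of the 6 was 26.1 to 29.9 with amlodipine, 25.5 to 26.8 on the earlier hydralazine arrays and 26.0 to 26.1 on the later ones. The number of arrays, 2 per strain and drug, limits the precision. The spread behind the p-values was that between the arrays of a group, estimated over all 40 arrays of the study, and may be technical. It was shared by all groups, most of them scanned within 1 session. The hydralazine arrays of a strain crossed sessions and differed more than its amlodipine arrays, so the p-values may be too small.

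Of 24993 probes tested, 64 (0.256%) differed between the drugs at an adjusted p under 0.05, 39 higher and 25 lower with amlodipine. Of these, 58 (0.232%) also met the same-side rule: 36 higher (0.144%) and 22 lower (0.088%) with amlodipine. The rule alone, whatever the p, was met by 1351 probes (5.41%), 727 higher (2.91%) and 624 lower (2.5%). A gene symbol was known for 30 of the 58 probes, 18 higher and 12 lower. Their differences were modest, between 0.25 and 1.03 log2 units in size with a median of 0.47 over the 58. A good flag on all 8 arrays was present for 48 of the 58. In 24 of the 30 genes the unadjusted p was under 0.05 within each strain. The choice of the genes by the pooled p and the same-side rule on these arrays favours that, so it adds no support. Of the 58, 0 passed the test of a difference between the strains, which 3 of all probes passed (0.012%). The same-side rule leaves out probes whose direction differs between the strains, so this 0 tests nothing. With only the 8 arrays in the fit limma called 0 probes (1358 at an unadjusted p under 0.05). That fit estimated the spread from far fewer samples, among which the wider-spaced hydralazine arrays weighed more, and had 1 drug term for both strains. The part of each in the lost calls was not tested. Leaving out the earlier hydralazine array of SHRSP or of WKY raised the 64 calls to 1141 or 921, leaving out SHRSP amlodipine replicate 2 gave 105, and leaving out the later SHRSP hydralazine array gave 40.

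**Figure D1:**
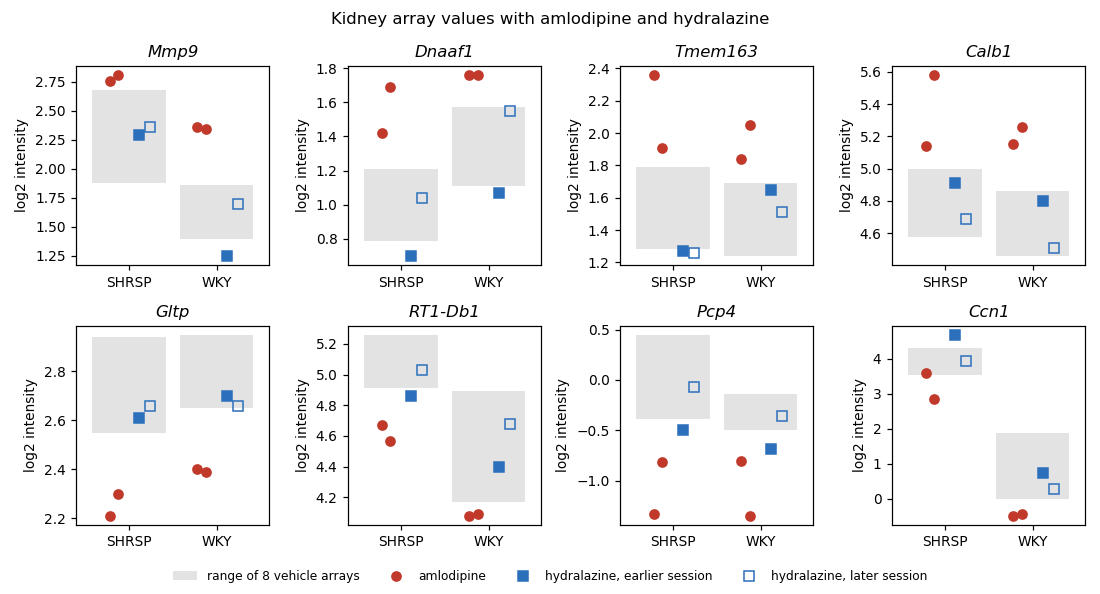
Log2 intensity on each of the 8 arrays for 8 genes, by strain. Filled circles are the amlodipine arrays, filled squares the earlier and open squares the later hydralazine array, and grey bands span the 8 vehicle arrays of the strain, which were scanned in other sessions. In every panel both amlodipine arrays lie on 1 side of both hydralazine arrays in each strain. For Mmp9, Dnaaf1, Tmem163 and Calb1 they also lie above the grey band, and for Gltp, RT1-Db1 and Pcp4 below it.

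Mmp9, a secreted gelatinase that degrades basement membrane collagen, had the largest increase among the named genes that passed. In SHRSP its log2 level was 2.76 and 2.81 on the amlodipine arrays, 2.29 on the earlier hydralazine array and 2.36 on the later one. In WKY it was 2.36 and 2.34 with amlodipine against 1.25 and 1.70 with hydralazine. The amlodipine arrays of each strain lay close together and above both hydralazine arrays. The difference was 0.67 ± 0.13 (1.59-fold, adjusted p = 0.0289), with 0.46 in SHRSP and 0.88 in WKY. It was 0.80 (adjusted p = 0.0125) against the earlier hydralazine arrays alone and 0.54 against the later ones alone. Neutrophils carry MMP9 protein in their granules, so their markers are given beside it: of 6 measured neutrophil genes 3 were flagged good on all 8 arrays and Ngp on none, 0 passed, 2 were above 0 and 4 below, and their median difference was -0.17 against 0.00 over all probes. The summed level of 5 of them was 6.57 to 6.82 with amlodipine, 6.79 to 7.35 on the earlier and 6.54 to 6.58 on the later hydralazine arrays. The myeloperoxidase gene Mpo was not flagged good on any amlodipine array.

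Of the 20 measured genes of matrix proteases and their inhibitors, Mmp9 alone passed, and the median of the 20 was 0.04. Its collagenase and gelatinase relatives did not pass, with Mmp2 at 0.08, Mmp14 at 0.32 and Mmp13 at 0.04. The inhibitor genes Timp1 (0.16 ± 0.13), Timp2 (0.21) and Timp3 (0.00) did not pass either. Outside that list 3 genes of secreted proteins passed. Matrilin 1 (Matn1), a protein of cartilage matrix, rose by 0.61 ± 0.11 (adjusted p = 0.0214). Its SHRSP arrays differed little, at 0.18 and 0.01 with amlodipine against -0.05 and -0.12 with hydralazine. Its WKY arrays were further apart, at 1.67 and 2.13 against 1.06 and 0.67. Cochlin (Coch), a secreted protein best known from the inner ear, rose by 0.51 ± 0.10 (adjusted p = 0.0317), but its other probe was at 0.07 (adjusted p = 0.834). The olfactomedin family member Olfml2b rose by 0.43 ± 0.08 (adjusted p = 0.0214), with 0.08 in SHRSP and 0.79 in WKY.

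Ccn1, a matricellular protein made by cells under mechanical and growth factor stimulation, had the largest decrease among the named genes that passed. In SHRSP its log2 level was 3.58 and 2.85 with amlodipine and 4.68 and 3.94 with hydralazine. In WKY, where this probe read far lower, it was -0.49 and -0.45 against 0.73 and 0.26. The groups did not overlap within a strain, and the difference was -1.03 ± 0.21 (2.04-fold, adjusted p = 0.0323). Against the earlier hydralazine arrays alone it was -1.33 (adjusted p = 0.00613). A second Ccn1 probe was at -0.04 (adjusted p = 0.964), so the decrease rests on 1 of the gene's 2 tested probes. Ccn1 was the 1 of 23 measured collagen and matrix genes to pass. The list's median was 0.03, and the relative Ccn2 was at 0.05. Type I collagen Col1a1 did not pass on either probe (-0.46 ± 0.18 and -0.37 ± 0.16, adjusted p = 0.3 and 0.353). The same-side rule was met by Col4a1 (0.28), Col5a2 (0.39) and Fbn1 (0.24) on the higher side, none of which passed.

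Dnaaf1, a cytoplasmic factor that preassembles the dynein arms of motile cilia, was higher with amlodipine in both strains. In SHRSP it was at 1.42 and 1.69 with amlodipine, 0.70 on the earlier and 1.04 on the later hydralazine array. In WKY it was at 1.76 on both amlodipine arrays against 1.07 and 1.55. The later hydralazine array thus lay nearer to amlodipine than the earlier one in each strain. The difference was 0.57 ± 0.10 (1.48-fold, adjusted p = 0.0155), 0.77 against the earlier arrays alone (adjusted p = 0.000278) and 0.36 against the later arrays alone. Of 16 measured genes of cilia and dynein assembly Dnaaf1 alone passed. The assembly factors Dnaaf4 (-0.01) and Dnaaf5 (0.04), the dynein chain genes Dnah1 (-0.02) and Dnai2 (-0.01) and the transport gene Ift88 (0.15) did not, and the list's median was 0.03.

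Calb1, calbindin, which buffers and carries calcium through the cells of the distal convoluted and connecting tubule, was higher with amlodipine. In SHRSP it was at 5.14 and 5.58 with amlodipine and at 4.91 and 4.69 with hydralazine. In WKY it was at 5.15 and 5.26 against 4.80 and 4.51. The amlodipine arrays were above the hydralazine arrays in each strain, and the difference was nearly the same, 0.56 in SHRSP and 0.55 in WKY. It was 0.55 ± 0.10 over both (1.47-fold, adjusted p = 0.0214), and 0.42 against the earlier arrays alone, where it missed the threshold (adjusted p = 0.0724). Calb1 was the 1 of 11 genes of the distal convoluted and connecting tubule to pass, and the list's median was 0.01. The sodium-calcium exchanger Slc8a1, which moves calcium out of the same cells, was at 0.37 ± 0.10 and met the same-side rule without passing (adjusted p = 0.122). The thiazide-sensitive cotransporter Slc12a3 was at -0.09 and -0.13 on its probes, and the calcium-binding S100g at -0.35. The summed level of the 11 genes was 452 to 489 with amlodipine, 444 to 458 on the earlier and 448 to 455 on the later hydralazine arrays. In whole kidney, more cells of a type and more RNA per cell cannot be told apart.

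Tmem163, a zinc transporter of vesicle and lysosome membranes, and Samd8, a ceramide phosphoethanolamine synthase of the endoplasmic reticulum, had the smallest p-values. Tmem163 was at 2.36 and 1.91 with amlodipine against 1.27 and 1.26 with hydralazine in SHRSP, and at 1.84 and 2.05 against 1.65 and 1.51 in WKY. Its difference was 0.62 ± 0.08 (1.54-fold, adjusted p = 0.00314). Samd8 was at 1.43 and 1.15 against 1.06 and 0.96 in SHRSP and at 1.91 and 1.66 against 0.69 and 0.91 in WKY. Its difference was 0.63 ± 0.09 (1.55-fold, adjusted p = 0.0037). The amlodipine arrays lay above both hydralazine arrays in each strain for both genes, though the gap was wider in SHRSP for Tmem163 (0.87 against 0.36) and in WKY for Samd8 (0.28 against 0.99). These strain differences did not pass (adjusted p = 0.62 and 0.299). Samd8 also varied widely over the vehicle arrays, from 0.39 to 1.90 in SHRSP and from 0.62 to 1.95 in WKY. Its Solvent C means (1.88 in SHRSP and 1.90 in WKY) and carvedilol means (1.97 and 1.88) lay above those of amlodipine (1.29 and 1.79). Those arrays shared another scan session.

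Gltp, a cytosolic protein that carries glycosphingolipids between membranes, was the lower gene whose decrease varied least. It was at 2.21 and 2.30 with amlodipine against 2.61 and 2.66 with hydralazine in SHRSP, and at 2.40 and 2.39 against 2.70 and 2.66 in WKY. The difference was -0.34 ± 0.06 (1.26-fold, adjusted p = 0.0155), and it was -0.33 and -0.34 against the earlier and the later hydralazine arrays. Samd8, Tmem163, Dnaaf1, Gltp and Gucy2c were the 5 of the 30 genes that passed whichever of the 8 arrays was left out. Of the other genes described above, Mmp9 lost its call in 5 of the 8 cases, Calb1, Coch and Matn1 in 4, Ccn1 in 3 and Olfml2b in 2. Gucy2c, the guanylate cyclase that serves as receptor for guanylin and uroguanylin, rose by 0.38 ± 0.06, but it was flagged good on 2 of 4 amlodipine and 1 of 4 hydralazine arrays and lay at the floor of -1.74 on 3 hydralazine arrays.

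**Figure D2:**
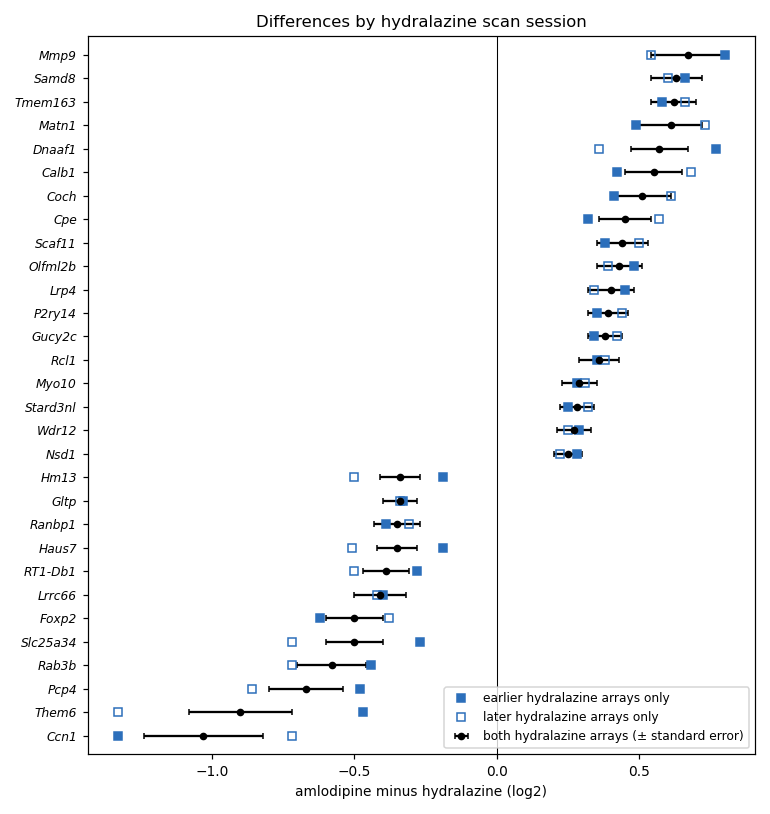
Difference between amlodipine and hydralazine (log2) for the 30 genes that passed and met the same-side rule. Black points with bars are the fit with both hydralazine arrays ± standard error, filled squares the difference against the earlier arrays alone and open squares that against the later arrays alone. The same-side rule by which the genes were chosen puts the squares on the side of their black point. Them6, Hm13 and Slc25a34 have larger differences with the later arrays, Ccn1 and Dnaaf1 with the earlier ones.

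Other genes of secretion, signalling and metabolism were given by the size of their change. Carboxypeptidase E (Cpe), which trims prohormones, rose by 0.45 ± 0.09, and the splicing-related Scaf11 by 0.44 ± 0.09 on 1 of its 3 tested probes (0.00 and -0.03 on the others). The calmodulin-binding peptide Pcp4 fell by 0.67 ± 0.13, from -0.50 and -0.07 with hydralazine to -1.33 and -0.82 with amlodipine in SHRSP, and from -0.69 and -0.36 to -0.81 and -1.35 in WKY. The exocytosis GTPase Rab3b fell by 0.58 ± 0.12 and the mitochondrial carrier family member Slc25a34 by 0.50 ± 0.10. The thioesterase superfamily member Them6 fell by 0.90 ± 0.18 on 1 probe and was at -0.05 on the other, and the transcription factor Foxp2 fell by 0.50 ± 0.10 on 1 probe and was at -0.09 on the other. Ranbp1, a partner of the nuclear transport GTPase Ran, fell by 0.35 ± 0.08, Haus7 of the augmin complex by 0.35 ± 0.07 and Lrrc66 by 0.41 ± 0.09. The adjusted p of these 10 genes was between 0.0263 (Cpe) and 0.0481 (Ranbp1). The rule for named genes leaves 10 of the 30 aside, which are named here after their values were seen. Of these, Gucy2c, Lrp4, P2ry14, Rcl1, Myo10, Stard3nl, Wdr12 and Nsd1 were 0.25 to 0.40 higher with amlodipine than with hydralazine. Gltp and the signal peptide peptidase Hm13 were 0.34 lower each. Nsd1 rose on 1 of its 3 tested probes (-0.05 and -0.46 on the others, adjusted p = 0.952 and 0.445), and the other probe of Hm13 was at -0.22 (adjusted p = 0.396). They include the agrin receptor Lrp4, the UDP-glucose receptor P2ry14, the histone methyltransferase Nsd1 and the ribosome assembly factors Rcl1 and Wdr12.

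Each gene was also compared without the hydralazine arrays of the later scan session. The 58 probes had been chosen in part on these same arrays, which favours their passing again, so such passes add no support. With the earlier hydralazine arrays alone, which share the session of the amlodipine arrays, 28 of the 58 probes and 15 of the 30 genes passed. In that fit 369 probes passed in all (1.48%), 156 higher (0.624%) and 213 lower (0.852%), each strain then resting on a lone hydralazine array that is assumed to vary like the other groups. With the later arrays alone 4990 probes passed (20%). Mmp9, Samd8, Tmem163, Dnaaf1, Olfml2b, Lrp4, P2ry14, Gucy2c, Rcl1, Wdr12, Nsd1, Gltp, Ranbp1, Foxp2 and Ccn1 were the 15. The other 15, among them Calb1, RT1-Db1, Pcp4, Them6 and Cpe, had an adjusted p between 0.0588 and 0.216 there. That fit has fewer hydralazine arrays as well as no later session, and some differences hardly moved in it, among them Lrrc66 (-0.40 against -0.41 with all arrays), Myo10 (0.28 against 0.29) and Stard3nl (0.25 against 0.28). Others were smaller, such as Them6 (-0.47 against -0.90). The part of the session in the lost calls was not tested.

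Of the class II genes of the major histocompatibility complex, whose proteins present peptides to helper T cells, 1 passed, the beta chain gene RT1-Db1. RT1-Db1 was at 4.67 and 4.57 with amlodipine against 4.86 and 5.03 with hydralazine in SHRSP, and at 4.08 and 4.09 against 4.40 and 4.68 in WKY. All amlodipine arrays lay below the hydralazine arrays of their strain, and RT1-Db1 fell by 0.39 ± 0.08 (1.31-fold, adjusted p = 0.0301). RT1-Ba, a class II alpha chain, came next to the threshold. It was at 4.96 and 4.89 against 5.21 and 5.41 in SHRSP and at 4.26 and 4.43 against 4.69 and 4.85 in WKY, a difference of -0.40 ± 0.09 (adjusted p = 0.0538). RT1-Bb was at -0.64 ± 0.20 (adjusted p = 0.184), and at -0.27 against the earlier arrays alone. The class II transactivator Ciita, which switches these genes on, was at -0.37 ± 0.12 (adjusted p = 0.226), -0.10 against the earlier and -0.64 against the later arrays. RT1-Da (-0.14), Cd74 (-0.15), RT1-DMb (-0.24) and RT1-DMa (-0.08) did not meet the same-side rule. RT1 genes other than RT1-Db1, and Ciita, are named here after their values were seen.

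The promoters of class II genes are known to share a conserved module that ends in the Y box, an inverted CCAAT element bound by the factor NF-Y. The 250 bases before the start of 4 class II genes are shown because they encode the classical class II chains described above, RT1-Db1 being the one that passed, and because the module is a textbook feature of the family. They are from RefSeq on build GRCr8: RT1-Db1 at chr20:4560163-4560412 on the minus strand, RT1-Ba at chr20:4576807-4577056 on the plus strand, RT1-Bb at chr20:4604119-4604368 on the minus strand and RT1-Da at chr20:4515165-4515414 on the plus strand. Each is written 5′ to 3′ along its gene, and capitals mark the Y box CTGATTGG.
RT1-Db1: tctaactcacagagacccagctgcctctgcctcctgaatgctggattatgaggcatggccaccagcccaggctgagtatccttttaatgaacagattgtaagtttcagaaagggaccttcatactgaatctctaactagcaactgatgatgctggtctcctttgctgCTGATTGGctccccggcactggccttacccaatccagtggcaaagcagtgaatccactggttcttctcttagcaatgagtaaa
RT1-Ba: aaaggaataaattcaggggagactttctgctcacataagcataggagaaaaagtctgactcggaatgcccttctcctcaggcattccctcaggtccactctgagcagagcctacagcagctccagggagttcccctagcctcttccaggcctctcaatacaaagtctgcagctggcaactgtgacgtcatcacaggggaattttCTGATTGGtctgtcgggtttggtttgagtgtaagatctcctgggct
RT1-Bb: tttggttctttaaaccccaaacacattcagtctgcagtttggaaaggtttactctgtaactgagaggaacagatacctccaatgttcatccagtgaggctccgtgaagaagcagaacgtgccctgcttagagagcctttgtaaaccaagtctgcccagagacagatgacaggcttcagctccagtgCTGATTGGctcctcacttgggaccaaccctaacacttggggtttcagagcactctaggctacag
RT1-Da: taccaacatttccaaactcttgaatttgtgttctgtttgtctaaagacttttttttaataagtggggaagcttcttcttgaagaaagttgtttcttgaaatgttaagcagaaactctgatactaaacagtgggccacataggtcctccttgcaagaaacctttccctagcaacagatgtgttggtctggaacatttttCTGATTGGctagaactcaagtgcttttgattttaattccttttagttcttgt
The letters CTGATTGG, or CCAATCAG on the other strand, occurred in all 4 windows, each time forward, beginning 83 bases before the start of RT1-Db1, 46 before that of RT1-Ba, 64 before that of RT1-Bb and 52 before that of RT1-Da. Of 33469 RefSeq promoter windows of the same 250 bases, 1068 (3.19%) held the motif on either strand. In the non-classical class II gene RT1-DMa, whose probe was at -0.08, 0 exact matches were found in the window. That window does hold the close variant GTGATTGG, which includes the inverted CCAAT letters ATTGG. The search for exact letters therefore does not show that RT1-DMa lacks a Y box. A match describes the sequence and says nothing of binding in these kidneys.

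The list of antigen presentation and interferon genes does not hold RT1-Db1. Of its 22 measured genes 0 passed, 4 met the same-side rule on the lower side and 0 on the higher side. Over all probes 2.5% met it on the lower and 2.91% on the higher side. The median was -0.12, with -0.10 against the earlier and -0.24 against the later arrays. Markers of immune cells, only some of which carry class II molecules, were also lower with amlodipine against the later arrays, by list median. The 23 macrophage and inflammation genes had a median of -0.11, with 0.00 against the earlier and -0.31 against the later arrays. Their summed level was 125 to 150 with amlodipine, 120 to 148 on the earlier and 153 to 174 on the later hydralazine arrays. The 11 T and B lymphocyte genes had a median of -0.19, with -0.04 against the earlier and -0.39 against the later arrays. Their summed level was 9.00 to 11.2 with amlodipine, 9.29 to 10.7 on the earlier and 11.8 to 13.8 on the later hydralazine arrays. The T cell receptor component Cd3d was at -0.68 ± 0.16 (adjusted p = 0.0666) and the myeloid adaptor Tyrobp at -0.36 ± 0.09 (adjusted p = 0.0947). Both met the same-side rule on the lower side, while Cd14 of the macrophage list met it on the higher side. The part of these cells in the class II values was not tested.

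**Figure D3:**
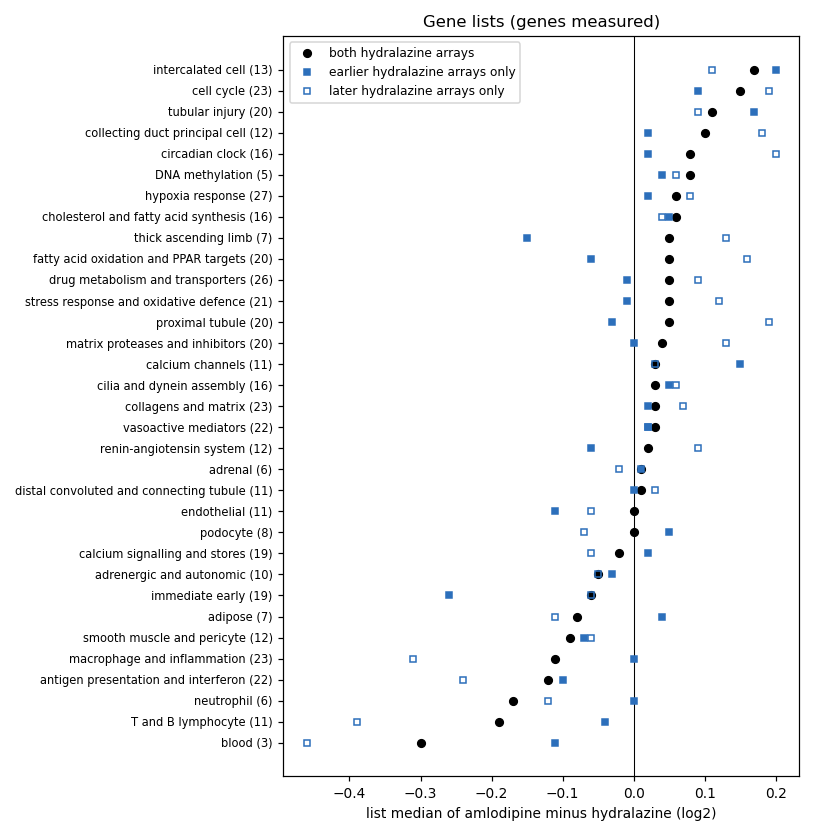
Median difference between amlodipine and hydralazine (log2) over the measured genes of each of 33 lists, with the number of genes in brackets. Black points use both hydralazine arrays, filled squares the earlier and open squares the later arrays alone. The lymphocyte (-0.39), macrophage (-0.31) and blood (-0.46) medians are low against the later arrays and lie between -0.11 and 0.00 against the earlier ones, while the intercalated cell median is 0.20 and 0.11.

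Intercalated cells, the acid-secreting cells of the collecting duct, had the highest list median over both strains and all 8 arrays, 0.17 over 13 genes against 0.00 over all probes, with 0.20 against the earlier and 0.11 against the later arrays. Within SHRSP the median was 0.08 and within WKY 0.09, where principal cells (0.25 in SHRSP) and cell cycle genes (0.21 in WKY) were higher. None of the 13 passed (0 of 13), 11 were above 0 and 2 below. The same-side rule was met by Atp6v0d2 on the higher side and by the water channel gene Aqp6 on the lower side. The lowest difference in the list was -0.08. The proton pump subunit Atp6v0d2 was nearest, at 5.08 and 4.89 with amlodipine against 4.66 and 4.60 in SHRSP and at 5.03 on both amlodipine arrays against 4.94 and 4.85 in WKY. Its difference was 0.24 ± 0.06 (adjusted p = 0.0692). The subunit Atp6v1g3 was at 0.37 ± 0.09 (adjusted p = 0.0869) and the anion exchanger Slc4a9 at 0.28 ± 0.08 (adjusted p = 0.128). The summed level of 12 genes of the list was 278 to 284 with amlodipine, 248 to 258 on the earlier hydralazine arrays and at most 268 on the later ones, so the drugs did not overlap. The list is described for its high median on these same arrays, which favours such a gap, so the gap adds no support. The principal cells of the same duct had a median of 0.10 over 12 genes, with 0 passing. The intercalated cell genes were named here after their values were seen.

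Of 16 measured genes of the circadian clock 0 passed, with a median of 0.08, 9 above 0 and 7 below. The activator Bmal1 was at 0.36 ± 0.13, its relative Npas2 at 0.33 ± 0.10 and Rora, an activator of Bmal1, at 0.44 ± 0.18. The repressor Nr1d1 was at -0.18 ± 0.08 and the output factor Dbp at -0.25 ± 0.12. These 5 of the 16 genes are named because they met the same-side rule, which 5.41% of all probes met. Their adjusted p lay between 0.184 (Npas2) and 0.402 (Dbp). Against the earlier and the later arrays Bmal1 was at 0.41 and 0.31, and Dbp at -0.25 and -0.25. Per1 was at -0.08. The sources used here do not give the time of day at which the kidneys were taken. The clock genes other than Per1 were named after their values were seen.

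Genes tied to the target of amlodipine, to pressure control and to injury did not pass. Of 11 calcium channel genes 0 passed and 0 met the same-side rule, with a median of 0.03. Cacna1c, the L-type channel of vascular muscle, was at 0.24 ± 0.14 (-0.08 against the earlier and 0.55 against the later arrays), and the T-type channel Cacna1h at -0.02 ± 0.25. Cacna1d was at the floor of -1.74 on every hydralazine array and was flagged good on 2 of 4 amlodipine arrays. With amlodipine it was at -1.74 and -1.54 in SHRSP and at -1.37 and -1.03 in WKY (limma over both strains, adjusted p = 0.376). Of 12 renin-angiotensin genes 0 passed and 0 met the same-side rule, with a median of 0.02. Agt was at -0.06, Agtr1a at -0.09 and Ace at 0.02 and 0.01 on its probes. Renin itself had no probe under its symbol. The nitric oxide synthase Nos3 (0.05) and the neuropeptide Y receptor Npy1r (-0.09 and -0.07) did not pass. Hypoxia genes gave 0 of 27, with a median of 0.06, Vegfa at 0.09 and 0.07, Egln3 at 0.04 and 0.02, Epo at 0.09 with a good flag on 3 of the 8 arrays, and haem oxygenase Hmox1 at 0.48 ± 0.23. Immediate early genes gave 0 of 19. Fos was at -0.39 and -0.28 on its probes and Egr1 at -0.21 on 1 probe. A second Egr1 probe was flagged good on 0 of 4 amlodipine and 2 of 4 hydralazine arrays and did not pass (limma, adjusted p = 0.427). In SHRSP it was at -1.74 on both amlodipine arrays against -0.44 and -1.32 with hydralazine. Its WKY arrays all lay at or next to the floor of -1.74.

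Tubular injury genes gave 0 of 20 passing, with a median of 0.11 and 16 above 0. Havcr1, kidney injury molecule 1, was at 1.31 ± 0.41 on its brighter-changing probe (adjusted p = 0.187) and at 0.45 ± 0.28 on the other. In SHRSP the first probe was at 3.98 and 1.36 with amlodipine against 0.52 and 0.34, and in WKY at 0.96 and 0.70 against 0.45 and 0.43. Amlodipine lay above hydralazine in each strain, but a single SHRSP array was far above the rest of the 8. That array was also the highest of the 8 for osteopontin, Spp1, at 6.74 (the other 7 lay between 5.43 and 5.87) and for the lipocalin Lcn2, at 3.41 (the others between 1.59 and 2.39). It lay within the range of the SHRSP vehicle arrays, which were scanned in other sessions. That range was 1.78 to 5.61 for this Havcr1 probe, 5.71 to 7.18 for Spp1 and 1.92 to 4.82 for Lcn2. The other SHRSP amlodipine array and both SHRSP hydralazine arrays lay below it for Havcr1 and Spp1. For Lcn2 only the earlier hydralazine array did. Spp1 was at 0.45 ± 0.19 and Lcn2 at 0.63 ± 0.25, with an adjusted p of 0.36 and 0.319. Of 23 cell cycle genes 0 passed, with a median of 0.15, and 4 met the same-side rule on the higher side: Top2a (0.53), Kif20a (0.49), Bub1 (0.34) and Plk1 (0.22). Over all probes 2.91% met it on that side.

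The drugs were also compared within each strain, as contrasts of the same model over all 40 arrays. In SHRSP 18 probes passed (0.072%), 9 higher and 9 lower, and in WKY 22 (0.088%), 14 higher and 8 lower. None of them passed in both strains (0 shared), and 7 of the SHRSP and 12 of the WKY probes were among the 64 of the pooled comparison. In SHRSP Tmem163 was at 0.87 ± 0.12 (adjusted p = 0.00206), the transcription factor Etv1 at -0.68 ± 0.13 (adjusted p = 0.0302) and the potassium channel subunit Kcnj11 at -0.85 ± 0.17 (adjusted p = 0.0452). For the potassium channel gene Kcnk1, 1 probe was not well above background with amlodipine there and was at least 1.49-fold lower (adjusted p = 0.0221), while the gene's other probe was at 0.03 over both strains (adjusted p = 0.933). In WKY Samd8 was at 0.99 ± 0.13 (adjusted p = 0.000717), Olfml2b at 0.79 ± 0.11 (adjusted p = 0.00378), Matn1 at 1.04 ± 0.16 (adjusted p = 0.00502), Myo10 at 0.52 ± 0.09 (adjusted p = 0.0175) and the ubiquitin ligase Smurf2 at 0.88 ± 0.15 (adjusted p = 0.0176). Etv1, Kcnj11, Kcnk1 and Smurf2 did not pass in the other strain and did not meet the same-side rule over both. Their differences between the strains did not pass (adjusted p = 0.315, 0.204, 0.0645 and 0.23). A second probe was at -0.26 for Etv1 (adjusted p = 0.22), -0.33 for Kcnj11 (adjusted p = 0.582) and 0.49 for Smurf2 (adjusted p = 0.152) over both strains, and a further Smurf2 probe at 0.16 (adjusted p = 0.479).

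**Figure D4:**
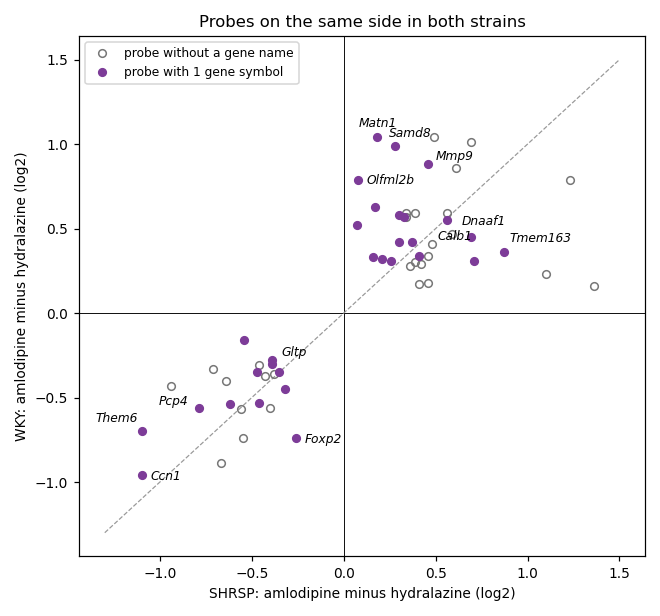
Difference between amlodipine and hydralazine in SHRSP (horizontal) and WKY (vertical), in log2, for the 58 probes that passed over both strains and met the same-side rule. The dashed line marks equal differences, and the rule itself puts every probe in the upper right or lower left. Matn1, Samd8 and Olfml2b lie towards WKY and Tmem163 towards SHRSP.

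The 16 vehicle arrays, 8 per strain, showed on which side the drugs departed. They had been scanned in other sessions and, for the H2O and the Solvent A arrays, on another slide series than the drug arrays, so their level relative to the drugs cannot be told apart from the session. Both amlodipine arrays lay above all 8 vehicle arrays in each strain for 11 of the 36 higher probes, against 2.06% of all probes, and for Mmp9, Dnaaf1, Tmem163 and Calb1 among the 18 genes. Both hydralazine arrays lay below all 8 vehicle arrays in each strain for 2 of the 36, P2ry14 and Lrp4, against 0.316% of all probes. Of the 22 lower probes, amlodipine lay below all 8 vehicle arrays in each strain for 11, against 1.21% of all probes, namely RT1-Db1, Pcp4, Them6, Gltp, Ranbp1, Haus7, Slc25a34 and 4 probes without a symbol. Hydralazine lay above all vehicles for 0 of the 22, against 0.928%. Since these probes were chosen for a difference between the same arrays, the shares describe where each drug lay and test nothing.

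Mmp9, Dnaaf1 and Tmem163 shared an order over the 10 treatments, of which the comparison had used amlodipine and hydralazine. In both strains amlodipine and the thiazide diuretic chlorothiazide had the highest of the 10 group means and the angiotensin receptor blocker candesartan the lowest. For Dnaaf1 the SHRSP means were 1.56 with amlodipine, 1.55 with chlorothiazide, 0.87 with hydralazine and 0.66 with candesartan, and the WKY means 1.76, 1.88, 1.31 and 0.83. Amlodipine and chlorothiazide arrays of Dnaaf1 overlapped in SHRSP, at 1.42 and 1.69 against 1.54 and 1.57, and did not in WKY, at 1.76 on both against 1.82 and 1.94. For Mmp9 the candesartan arrays lay at 1.63 on both in SHRSP and at 0.84 and 0.39 in WKY, below the hydralazine arrays of the same strain. Over all probes 9 of 24993 (0.036%) had this order, and 3 of these were among the 58. The order was set down from the values of these genes, so their meeting it tests nothing. Calb1 had another order. Its amlodipine mean was the highest of 10 in each strain (5.36 and 5.20), its hydralazine mean lay among the vehicles (4.80 and 4.66), and carvedilol (4.59 and 4.37), chlorothiazide (4.30 and 3.97), candesartan (4.28 and 3.65) and enalapril (4.07 and 3.98) were below every vehicle mean. Amlodipine had the lowest of the 10 means in both strains for 15 of the 22 lower probes (3.89% of all probes). Amlodipine's place in these orders is in part set by the choice of the 58 probes, so the counts are descriptions. Arrays of the other treatments were all scanned in other sessions than the amlodipine arrays. The WKY enalapril array numbered replicate 2 shared the session of the later hydralazine arrays, and the rest shared no session with either drug. Those of candesartan, Solvent A, H2O and, in SHRSP, enalapril were on other slide series. Treatment and session cannot be told apart for these other treatments.

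**Figure D5:**
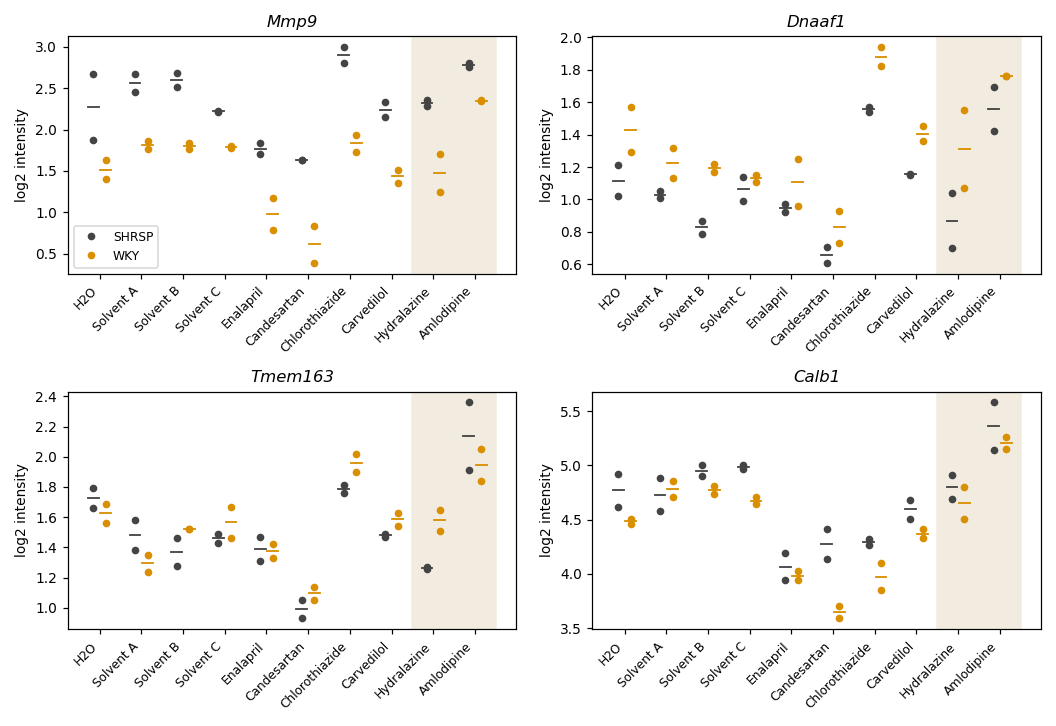
Log2 intensity of Mmp9, Dnaaf1, Tmem163 and Calb1 on all 40 arrays by treatment, SHRSP in grey and WKY in orange. Points are arrays, short lines the mean of 2 arrays, and the shaded band holds hydralazine and amlodipine. Amlodipine lies above hydralazine in each panel and strain, and for Mmp9, Dnaaf1 and Tmem163 candesartan is the lowest mean in both strains.

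The other 28 of the 58 probes carried no gene symbol, 18 higher and 10 lower. The largest increase was that of probe GE21429, 1.01 ± 0.20 (2.02-fold, adjusted p = 0.0267). Probes GE1237046 (0.46 ± 0.07, adjusted p = 0.0121) and GE18222 (-0.64 ± 0.10, adjusted p = 0.0121) passed whichever array was left out.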

How the data were processed

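Per the labels' protocols, kidney RNA carried Cy5 and was measured on CodeLink rat arrays. The deposited files hold 1 normalised intensity and 1 quality flag for every probe of an array, per the file headers. The sources used here do not name the scanner software or how it normalised. The values show an intensity median of 1 on all arrays, with 9269 at or below 0. Intensities in the deposited series tables were the same (largest difference 0 over 1337935 values). Of 780 pairs of arrays 0 were identical. Intensities were quantile normalised, given a floor of 0.3 (percentile 1 over spots flagged good) and log2-transformed.

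Of 33849 probes, 24993 were tested, each flagged good on both arrays of 1 or more groups and with a value in every group. The model, limma 3.58.1 in R 4.3.3, had 1 mean for each of the groups of all 40 arrays, leaving 20 residual degrees of freedom, and Benjamini-Hochberg adjusted p under 0.05 over all tested probes made a call. Replicates were numbered in accession order, which pairs no samples. The scan session was read from the array files and the slide series from the titles. A bound ("at least N-fold") sets the brighter group against the dimmer group's lowest good-flagged signal. Symbols came from the series' probe table (16753 probes with 1 symbol, 165 with several, 16931 with none), updated through RefSeq on GRCr8, which also gave the promoters. In a list each gene stands for 1 probe. Genes were named by rule: the 10 highest and 10 lowest differences that passed and met the same-side rule, up to 3 such members of each list, a panel whatever its p, and the 5 smallest p in each strain and for their difference. The comparison, its genes and the 33 lists were chosen with earlier results of these data known. The code was tested on simulated data. Alternatives were other background, scaling, floor and filter settings, session as a block, other limma settings and leaving out arrays. Python 3.11.15, NumPy 2.4.6, pandas 2.3.3 and Matplotlib 3.10.9 were used.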

Additional observations from a re-analysis of the deposited data

Results flagged for a closer look

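At 3 probes (0.012% of those tested) the difference between amlodipine and hydralazine itself differed between the strains by limma's interaction test. The bleomycin hydrolase gene Blmh was at -0.57 in SHRSP and 0.48 in WKY, a difference of -1.05 ± 0.16 (adjusted p = 0.0126). It was flagged good on 1 of 4 amlodipine and 1 of 4 hydralazine arrays, and lay at or near the floor of -1.74 elsewhere. Amlodipine in SHRSP and hydralazine in WKY were not well above background, so amlodipine was at least 1.36-fold lower in SHRSP and at least 1.31-fold higher in WKY, and the differences above are measured values next to the floor. The unnamed probe GE1166352 was at 0.08 in SHRSP and -0.66 in WKY, a difference of 0.74 ± 0.11 (adjusted p = 0.0126). It was flagged good on 0 of 4 amlodipine and 2 of 4 hydralazine arrays. In WKY, where amlodipine was not well above background, it was at least 1.49-fold lower with amlodipine. The unnamed probe GE16764 was flagged good on all 8 arrays and was at -1.07 in SHRSP and 0.47 in WKY, a difference of -1.54 ± 0.25 (adjusted p = 0.0156). Its SHRSP values were -0.91 and -0.92 with amlodipine against 0.09 and 0.23 with hydralazine, and its WKY values 1.33 and 1.30 against 0.89 and 0.81.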

How the results depend on the processing

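All 20 genes named by size kept their direction under every alternative in which their probe was tested, which the same-side rule fixes where arrays are only left out, and over all named genes 905 results kept their call or absence of one, 5 gained a call, 181 lost one and 0 turned. The counts of calls were far less stable. They are given in the order both strains, both strains with the same-side rule, SHRSP, WKY and difference between strains, against 64, 58, 18, 22 and 3. They were 40, 38, 3, 7 and 0 with normexp background correction, 22, 21, 17, 19 and 3 with median scaling, 14, 13, 12, 9 and 0 with the deposited series table, 117, 99, 45, 34 and 15 with the floor at percentile 5, 100, 82, 39, 31 and 13 without a filter, and 62, 58, 3, 14 and 1 among probes flagged good on all 8 arrays. With session as a fixed block they were 762, 92, 170, 582 and 23, as a random block (correlation 0.455) 36, 27, 22, 25 and 16, with trend and robust settings 77, 73, 19, 12 and 1, and without spots flagged POOR, an alternative chosen after seeing the data, 79, 63, 27, 26 and 5. Array weights gave 0 for all of them (954, 954, 807, 505 and 321 probes at an unadjusted p under 0.05), and the 8 arrays fitted alone gave 0 for both strains, with or without the same-side rule. Without the later hydralazine arrays the first counts were 369 and 328, without the earlier ones 4990 and 4770, where the same-side rule has a single hydralazine array to judge by. Leaving out 1 array at a time gave 40 to 1141, 19 to 630, 23 to 950, 22 to 280 and 8 to 55. Both extremes came from hydralazine in SHRSP: 1141 without replicate 1 and 40 without replicate 2. Without WKY hydralazine replicate 1 the count was 921, and the highest counts within SHRSP and within WKY also came from leaving out that strain's hydralazine replicate 1. Where a lone array remained it is assumed to vary like the other groups. In some settings fewer probes or arrays entered, and the cause of these shifts was not tested. The share of calls that were higher with amlodipine was 60.9%, 65% with normexp, 45.5% with median scaling, 28.6% with the series table, 38.2% with the fixed block and 64.1% at the higher floor, while the median of all probes moved to -0.05 with median scaling and -0.06 with the series table. Of the 20 genes named by size, 12 kept their call with session as a fixed block, 7 as a random block, 6 with median scaling and 3 with the series table. No paired analysis was possible because the labels give the arrays no replicate numbers. Those used here follow accession order and pair nothing.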

Other observations

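Against the earlier hydralazine arrays alone, which share a scan session with the amlodipine arrays, 6 genes of the lists passed that did not pass in the full comparison and did not meet the same-side rule. Over all probes tested 1.48% passed against these arrays and 20% against the later ones, and each strain then rests on 1 hydralazine array. The vitamin D 24-hydroxylase Cyp24a1 had a log2 difference, amlodipine minus hydralazine, of -0.71 (limma, adjusted p = 0.0345), the organic anion transporter Slco1a1 at -0.37 (adjusted p = 0.0227) and the fatty acid translocase Cd36 at -0.85 (adjusted p = 0.0329). The collecting duct transcription factor Elf5 was at 0.39 (adjusted p = 0.0229), Hmx2 at 0.38 (adjusted p = 0.04) and Ramp2, a subunit of an adrenomedullin receptor, at 0.34 (adjusted p = 0.0234). Against the later arrays alone the same genes, in that order, were at -0.09, -0.14, 1.06, -0.12, 0.11 and -0.09. Cd36 turned direction with the hydralazine array used and passed the opposite way against the later arrays (limma, adjusted p = 0.000781): in SHRSP its log2 intensity was 0.65 and 1.15 with amlodipine, 1.48 on the earlier and -0.26 on the later hydralazine array, and in WKY at 0.04 and 0.30 with amlodipine against 1.29 and -0.79. Cyp24a1 lay below both hydralazine arrays in SHRSP (2.73 and 3.19 against 3.90 and 3.53), while its WKY arrays overlapped. These genes are named after their values were seen.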
